A study of Mus musculus with 63 samples.

Results

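The 8 undivided tumours with the most stromal collagen RNA were set against the 8 with the least. They were chosen by the values of 3 collagen genes among 23 small intestinal tumours that were each sequenced as a single library, with no clone letter in their title, within a series of 63 libraries. For each tumour a collagen score was taken, the mean log2(value + 1) of Col1a1, Col1a2 and Col3a1, where a value is the authors' normalised count of a gene. Col1a1 and Col1a2 encode the chains of type I collagen and Col3a1 that of type III, the fibrillar collagens that fibroblasts lay down. The 8 highest scores made the stroma-rich set and the 8 lowest the stroma-poor set, and 7 tumours stayed between them. Every other gene averaging 10 or more across these tumours was then compared between the sets, to see which epithelial and immune programmes went with stroma.

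Every tumour came from an animal with the labelled genotype Apchet, in which tamoxifen (4 mg, at over 8 weeks of age) switched on a Cre driven by the Villin promoter. The Cre removes 1 allele of Apc, the brake on WNT signalling, from intestinal epithelium and activates the Confetti reporter. The animals then received ENU, a chemical mutagen, at 200 mg per kg, 10 days after tamoxifen, and no untreated or Apc-intact tissue was sequenced. The 23 undivided tumours were 10 from 1 female mouse and 13 from 1 male mouse, so that mouse and sex cannot be told apart. The other 40 libraries were the clones a and b dissected from 20 further tumours, and none of them entered the choice of the sets. Replicates here are tumours of 2 animals, so p-values measure the spread between tumours and not between mice.

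Intestinal tumours grow in a bed of fibroblasts, smooth muscle, vessels and leukocytes. Fibroblasts around the crypt base supply WNT ligands, R-spondins and BMP antagonists that maintain the stem cells, and in tumours they deposit fibrillar collagen, remodel it with metalloproteases and secrete growth factors. In bulk RNA, fewer cells of a type and less RNA per cell cannot be told apart, so a higher fibroblast gene may reflect either.

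The score ran from 11.4 in tumour 3 of the female mouse to 5.75 in tumour 17 of the male mouse. It spanned 10.5 to 11.4 in the stroma-rich set (median 10.7) and 5.75 to 8.98 in the stroma-poor set (median 8.16). Just inside the upper limit lay tumour 8 of the female mouse at 10.5 and just outside it tumour 9 of the male mouse at 10.1. At the lower limit, tumour 8 of the male mouse at 8.98 was inside and tumour 6 of the female mouse at 9.07 outside. Col1a1 (chromosome 11, 94827050 to 94843868, GRCm39) had values of 1566 to 2751 in the stroma-rich set (median 1816) and 21.1 to 629 in the stroma-poor set (median 175). Col1a2 (chromosome 6, 4504814 to 4541555) stood at 842 to 1976 against 56.2 to 457. Col3a1 (chromosome 1, 45350698 to 45395840) stood at 1752 to 3811 against 122 to 641. These 3 genes chose the sets and were not tested.

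Several other measures were unevenly divided between the sets. The stroma-rich set held 5 tumours of the female and 3 of the male mouse, the stroma-poor set 1 and 7 (Fisher's exact test, two-sided, p = 0.119), and mouse was therefore a covariate in the fit. Of the stroma-rich tumours 3 came from the segment labelled SI10 and 5 from SI20, of the stroma-poor tumours 6 and 2 (Fisher's exact test, two-sided, p = 0.315). The share of all values that fell on Rn18s, the 18S ribosomal RNA, did not overlap between the sets. It was 0.561% to 3.11% (median 0.883%) in stroma-rich and 5.39% to 19.3% (median 11.1%) in stroma-poor tumours, a difference in means of -9.95 percentage points (exact permutation test, two-sided, p = 0.000155, the smallest that the 12870 divisions can give). Estimated depth was 21.8 to 39.9 M reads in stroma-rich and 14.7 to 40.1 M reads in stroma-poor tumours (exact permutation test, two-sided, p = 0.0127). The mitochondrial share, 3.02% to 3.53% against 1.94% to 5.30%, did not pass that test (p = 0.584). The sum of all values was 27.4 to 33.2 M in stroma-rich and 30.5 to 45.9 M in stroma-poor tumours (exact permutation test, two-sided, p = 0.0269). Tumours 15, 17 and 18 of the male mouse, all stroma-poor, stood apart from the rest in Rspo3, an R-spondin, at 96.1 to 141, against at most 25.8 in the other 20 tumours. The part of the ribosomal RNA share, of segment and of depth in the results was not tested beyond the fits given beside them.

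**Figure D1:**
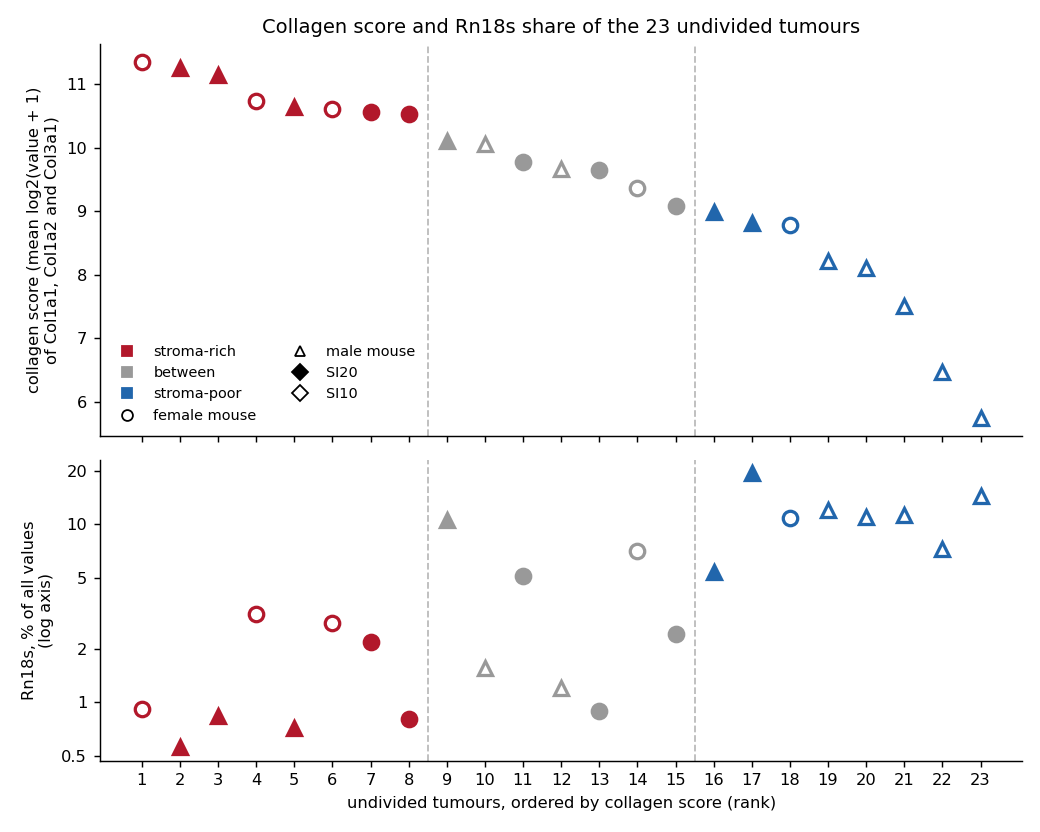
Upper panel, collagen score of the 23 undivided tumours in rank order, and lower panel, Rn18s as a percentage of all values on a log axis. Circles are the female and triangles the male mouse, filled symbols segment SI20 and open symbols SI10, with dashed lines at the limits of the sets. Score falls from 11.4 to 5.75, and the stroma-rich tumours lie at or below 3.11% Rn18s while the stroma-poor tumours lie at or above 5.39%.

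Of 16508 genes tested, 784 were higher in the stroma-rich set (4.75% of those tested) and 719 lower (4.36%), by limma on log2(value + 1) with mouse as covariate and a Benjamini-Hochberg adjusted p under 0.05. The sets did not overlap at all for 418 genes (2.53%), of which 228 were higher in stroma-rich tumours. The genes compared did not choose the sets, but they were read in the same libraries as the score. These shares are the background for the counts that follow, in which a list is a set of genes marking a cell type or pathway. With segment added to the fit 181 genes were called (69 higher), and in the male mouse alone, with 3 stroma-rich and 7 stroma-poor tumours, 212 (116 higher). With the log2 share of Rn18s added, 0 genes were called and 1392 had an unadjusted p under 0.05, against 4306 without it. That share did not overlap between the sets, so this fit can hardly tell set from share. The loss of calls therefore does not show which of them the genes follow. With segment, 1 of the collagens, 4 glycoproteins, 2 niche factors, 1 protease, 1 WNT target and 3 ribosomal proteins described next were still called, and with Rn18s no member of any list. Many calls rested on 3 tumours of the male mouse: 417 genes were called without tumour 6, 562 without tumour 7 and 624 without tumour 10. The balance of the calls followed the scaling. The median of all genes was 0.04 as deposited, 0.18 when every library had the same sum (1322 of 1568 calls higher) and -0.15 when the pan-epithelial genes were set equal (489 of 1540 higher).

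The genes of the matrix rose together with the score. Of 12 other collagens tested 8 were higher and none lower, with a median log2 fold change of 1.98, against 0.04 over all genes. Col5a2, a chain of the type V collagen that nucleates fibrils, was at 333 to 728 (median 440) in stroma-rich and 12.5 to 114 (median 70.7) in stroma-poor tumours. The sets do not meet, and the log2 fold change was 3.14 ± 0.50 (SE, n = 8 and 8, adjusted p = 0.00314). Its partner Col5a1 rose by 2.49 ± 0.52 (adjusted p = 0.00997) and Col6a2, of the beaded type VI collagen, by 2.21 ± 0.49 (adjusted p = 0.0122), both without overlap.

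Among 21 matrix glycoproteins and proteoglycans 13 were higher and none lower (median 1.97). Dcn, decorin, which coats collagen fibrils (chromosome 10, 97315275 to 97358155), had values of 811 to 2116 (median 1402) in stroma-rich and 98.7 to 355 (median 254) in stroma-poor tumours. The sets again lay apart, and the rise was 2.87 ± 0.34 (adjusted p = 0.000458). Nid1, nidogen of the basement membrane, went from a median of 146 to one of 1391 (2.61 ± 0.40, adjusted p = 0.00236). Postn, periostin, lay between 0 and 5.64 in 7 stroma-poor tumours and at 39.3 in tumour 8 of the male mouse, and between 19.6 and 177 in the stroma-rich set (4.64 ± 0.78, adjusted p = 0.00382). Lum, lumican, overlapped and was not called (2.31 ± 0.89, adjusted p = 0.111).

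Markers of the cells themselves moved less evenly. Of 9 tested fibroblast markers 3 were higher (median 1.39). Pdgfrb, the PDGF receptor of fibroblasts and mural cells, was at 318 to 528 (median 339) against 12.8 to 141 (median 50.6), a rise of 2.67 ± 0.48 (adjusted p = 0.00521). Cd34 rose by 2.06 ± 0.37 (adjusted p = 0.00532), also without overlap. Pdgfra, on the other hand, overlapped: 523 to 1201 in stroma-rich and 110 to 1156 in stroma-poor tumours (1.70 ± 0.44, adjusted p = 0.0249).

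Factors that mesenchyme sends to the crypt included the gene with the third largest rise of all named genes. Of 14 tested 6 were higher and none lower (median 2.13). Grem1, gremlin 1, a secreted BMP antagonist (chromosome 2, 113576509 to 113589000), was listed at 0 in 7 of 8 stroma-poor tumours and at 23.3 in the other, tumour 8 of the male mouse. In the stroma-rich set it ran from 17.9 to 698 (median 206). The fitted log2 fold change of 7.19 ± 0.92 (adjusted p = 0.000881) depends on the pseudocount: it was 10.2 with 0.1 and 5.13 with 5, and called in both. Nrg1, neuregulin 1, a ligand of the ERBB3 receptor, was at 239 to 518 (median 389) against 3.28 to 83.7 (median 24.6), without overlap (3.88 ± 0.62, adjusted p = 0.00312). Wnt5a, a non-canonical WNT ligand, rose by 2.25 ± 0.43 (adjusted p = 0.0068), and the sets again did not meet. Rspo3 did not separate them (0.20 ± 1.299, adjusted p = 0.942), and its 3 highest values were those of the tumours named above.

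Muscle and vessels followed. Of 17 smooth muscle genes 6 were higher (median 1.52). Tpm2, a tropomyosin, was at 209 to 1282 against 75.0 to 176 (1.52 ± 0.40, adjusted p = 0.0271), and Actg2, enteric actin, rose by 2.63 ± 0.60 (adjusted p = 0.0149). The defining Myh11 (2.38 ± 0.74, adjusted p = 0.0554) and Des (1.74 ± 0.55, adjusted p = 0.0585) fell short. Of 7 pericyte genes 3 were higher, Abcc9 by 2.96 ± 0.57 (adjusted p = 0.00653) and Rgs5 by 1.81 ± 0.47 (adjusted p = 0.0258). Among 18 genes of blood endothelium 9 were higher (median 1.73). Pecam1, the junction protein CD31, lay at 324 to 617 (median 442) against 22.8 to 265 (median 116), with a log2 fold change of 2.02 ± 0.45 (adjusted p = 0.0131). Robo4 (2.46 ± 0.49, adjusted p = 0.00821) and Eng, endoglin (2.61 ± 0.57, adjusted p = 0.0117), were separated in the same way. Cdh5, the endothelial cadherin, was not called (0.88 ± 0.66, adjusted p = 0.426): its values ran to 8659 in stroma-rich and 7468 in stroma-poor tumours.

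Markers of other cells that a dissected tumour could carry were counted in the same way. None of the pancreatic acinar genes reached a mean of 10. Of adipocytes 2 genes were tested and of mesothelium 3, and 0 were called in either, with medians of 0.54 and -0.18. Enteric glia and neurons had 1 of 10 called and lymphatic endothelium 1 of 7, both higher. These lists are too short to be told from the 4.75% of all genes.

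**Figure D2:**
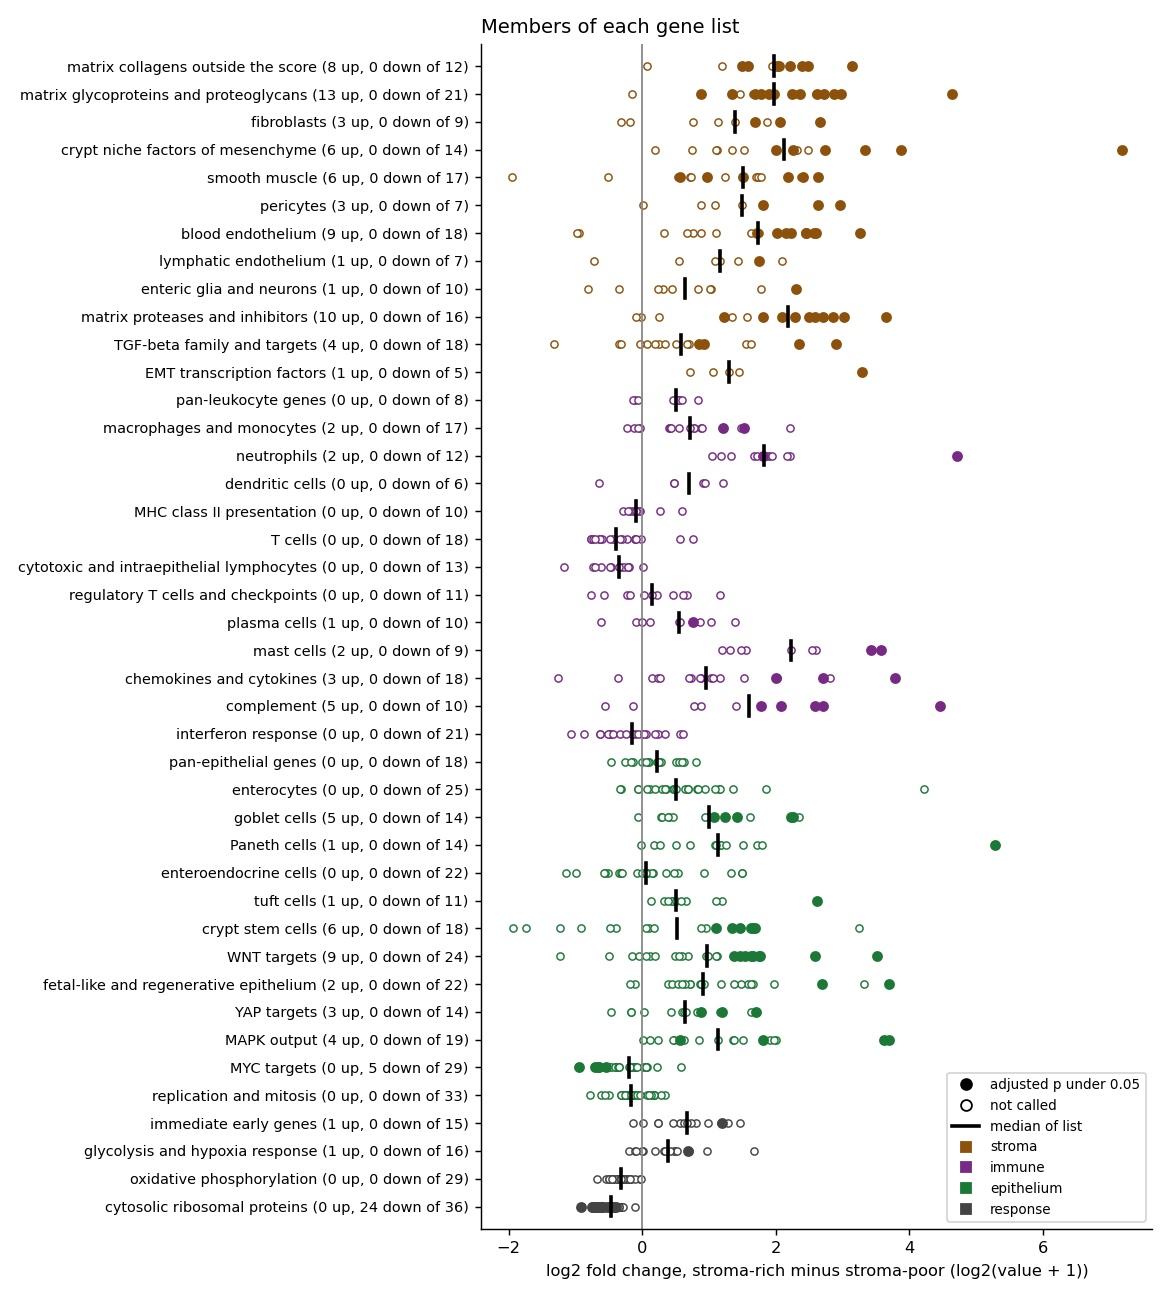
Log2 fold change between stroma-rich and stroma-poor tumours of every tested gene in each list of at least 5 tested genes, on the log2(value + 1) scale. Filled points passed the adjusted p of 0.05, open points did not, and black bars are list medians. Matrix and protease lists centre near 2. T cells (median -0.39) and ribosomal proteins (median -0.47) both centre below 0, with 0 of 18 and 24 of 36 called.

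Proteases that cut the matrix made up one of the lists with the highest share of calls. Of 16 tested proteases and inhibitors 10 were higher (median 2.19), 7 of them without overlap. Mmp2, gelatinase A of fibroblasts, was at 427 to 1079 (median 663) against 19 to 204 (median 89.9), a rise of 2.705 ± 0.46 (adjusted p = 0.00413). Mmp14, the membrane protease that activates it, rose by 1.23 ± 0.24 (adjusted p = 0.00777). The stromelysin Mmp10 ran from 1397 to 3080 (median 2374) in stroma-rich and from 48.8 to 884 (median 277) in stroma-poor tumours (2.58 ± 0.51, adjusted p = 0.00778). Mmp13, the collagenase of the same gene cluster and chosen for the promoters shown next after its values were seen, was at 879 to 2305 (median 1410) against 33.1 to 641 (median 91.2), with a log2 fold change of 3.03 ± 0.60 (adjusted p = 0.00789).

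The 250 bases before the starts of Mmp10 and Mmp13 are shown, from RefSeq on GRCm38.p6, both on the plus strand (chr9:7502092-7502341 for Mmp10 and chr9:7272264-7272513 for Mmp13). Capitals mark a match to TGANTCA, the AP-1 element, which reads the same in both directions:
Mmp10: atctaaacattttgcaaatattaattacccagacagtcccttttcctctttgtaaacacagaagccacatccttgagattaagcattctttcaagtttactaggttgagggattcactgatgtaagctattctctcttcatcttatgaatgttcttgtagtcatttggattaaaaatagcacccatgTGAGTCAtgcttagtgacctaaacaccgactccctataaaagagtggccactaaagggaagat
Mmp13: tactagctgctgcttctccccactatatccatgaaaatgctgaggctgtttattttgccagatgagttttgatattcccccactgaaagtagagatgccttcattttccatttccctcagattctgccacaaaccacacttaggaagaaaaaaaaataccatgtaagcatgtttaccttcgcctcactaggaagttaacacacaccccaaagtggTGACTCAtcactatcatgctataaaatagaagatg
Each holds 1 match, beginning 63 bases before the start of Mmp10 and 35 bases before that of Mmp13. Of the 11 proteases and inhibitors with a promoter in the table, 5 held a match in any of their promoters (Mmp3, Mmp7, Mmp10, Mmp12 and Mmp13). Mmp7, one of these, was not called between the sets. Whether a match goes with a change in level was not tested. Of all 32851 promoters of this length 6.75% held a match. The first count is of genes and the second of promoters, so they are not like measures. A match is a run of letters and not a measured site.

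The TGF-beta family had 4 of 18 genes higher (median 0.59). Inhba, which encodes the subunit of activin A, went from 10.3 to 179 (median 42.2) in stroma-poor to 295 to 616 (median 415) in stroma-rich tumours, and the sets did not overlap (2.90 ± 0.48, adjusted p = 0.00351). Tgfb1 itself rose by 0.86 ± 0.25 (adjusted p = 0.04), a call lost in 16 of 36 alternatives.

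Leukocyte lists differed among themselves. Of 8 pan-leukocyte genes 0 were called (median 0.51), a list too short to be told from the 4.75% of all genes. Ptprc, the common leukocyte antigen CD45, was at 140 to 416 (median 202) in stroma-rich and 59.1 to 348 (median 195) in stroma-poor tumours, ranges that largely coincide (0.56 ± 0.42, adjusted p = 0.424). Macrophages had 2 of 17 higher (median 0.71), a count that also cannot be told from that share. Itgam, CD11b, was at 323 to 578 against 63.7 to 330, with 7 stroma-rich tumours above every stroma-poor one (1.20 ± 0.33, adjusted p = 0.0313). Mrc1, the mannose receptor, rose by 1.52 ± 0.44 (adjusted p = 0.0402), a call lost in 18 of 36 alternatives. Csf1r lay at the threshold (1.47 ± 0.45, adjusted p = 0.0501) and Adgre1 was not called (0.88 ± 0.39, adjusted p = 0.157).

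In the neutrophil list 2 of 12 genes were higher and both are made by other cells too. That count cannot be told from the 4.75% of all genes. Ptgs2, the inducible cyclooxygenase, was at 224 to 886 (median 520) against 0 to 211 (median 15.5), with no overlap and a log2 fold change of 4.71 ± 0.92 (adjusted p = 0.00706). Mmp9, gelatinase B, rose by 1.81 ± 0.38 (adjusted p = 0.01). The defining S100a8 (1.899 ± 1.11, adjusted p = 0.298) and S100a9 (1.86 ± 1.06, adjusted p = 0.284) ranged widely in both sets.

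Lymphocyte and antigen presentation genes showed no call. In T cells 0 of 18, in cytotoxic and intraepithelial lymphocytes 0 of 13 and in MHC class II presentation 0 of 10 genes passed, with medians of -0.39, -0.34 and -0.09. Lists this short with 0 calls cannot be told from the 4.75% higher and 4.36% lower of all genes. Cd3e of the T cell receptor complex was at 18.5 to 65.4 (median 42.1) in stroma-rich and 24.2 to 193 (median 106) in stroma-poor tumours (-0.76 ± 0.44, adjusted p = 0.291). H2-Aa differed by -0.13 ± 0.53 (adjusted p = 0.905). With segment in the fit the medians of these T cell and MHC class II presentation lists turned positive, to 0.14 and 0.38, still with 0 calls, and with every library at the same sum that of MHC class II presentation was 0.04. The interferon response likewise had 0 of 21 genes called (median -0.15), Ifit1 differing by -0.10 ± 0.74 (adjusted p = 0.947). This list too is short for such a reading.

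Among mast cell genes the calls were proteases. Of 9 tested genes 2 were higher, a count that cannot be told from the 4.75% of all genes. The list median of 2.23 was above those of the collagens and glycoproteins. The mean level of the list had a median of 4.80 in stroma-rich tumours, 4.89 in those between and 3.50 in stroma-poor ones. Mcpt2, a protease of mucosal mast cells, was at 484 to 8070 (median 902) against 44.0 to 209 in 7 stroma-poor tumours and 2833 in tumour 8 of the male mouse (3.42 ± 0.88, adjusted p = 0.0248). Mcpt4 rose by 3.58 ± 1.02 (adjusted p = 0.0387, and 0.0637 with a pseudocount of 0.1), a call lost in 18 of 35 alternatives. With tumours 15, 17 and 18 of the male mouse left out, 0 of the mast cells list was called and its median was 1.63. Several mast cell proteases are paralogues, between which the estimated counts may be divided, and this was not tested.

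Soluble mediators held some calls. Of 18 chemokines and cytokines 3 were higher, a count that cannot be told from the 4.75% of all genes. Il11, a cytokine of the IL-6 family that acts on epithelium and fibroblasts, was at 63.5 to 224 (median 166) against 1.46 to 18.6 in 7 stroma-poor tumours and 83.5 in the remaining one (3.78 ± 0.68, adjusted p = 0.00516). Cxcl13, which attracts B cells, rose by 2.01 ± 0.41 without overlap (adjusted p = 0.00877). Complement had 5 of 10 genes higher (median 1.59), among them C4b (2.71 ± 0.48, adjusted p = 0.00448), C3 (4.47 ± 1.10, adjusted p = 0.0206) and the C1 inhibitor Serping1 (1.79 ± 0.41, adjusted p = 0.0144).

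**Figure D3:**
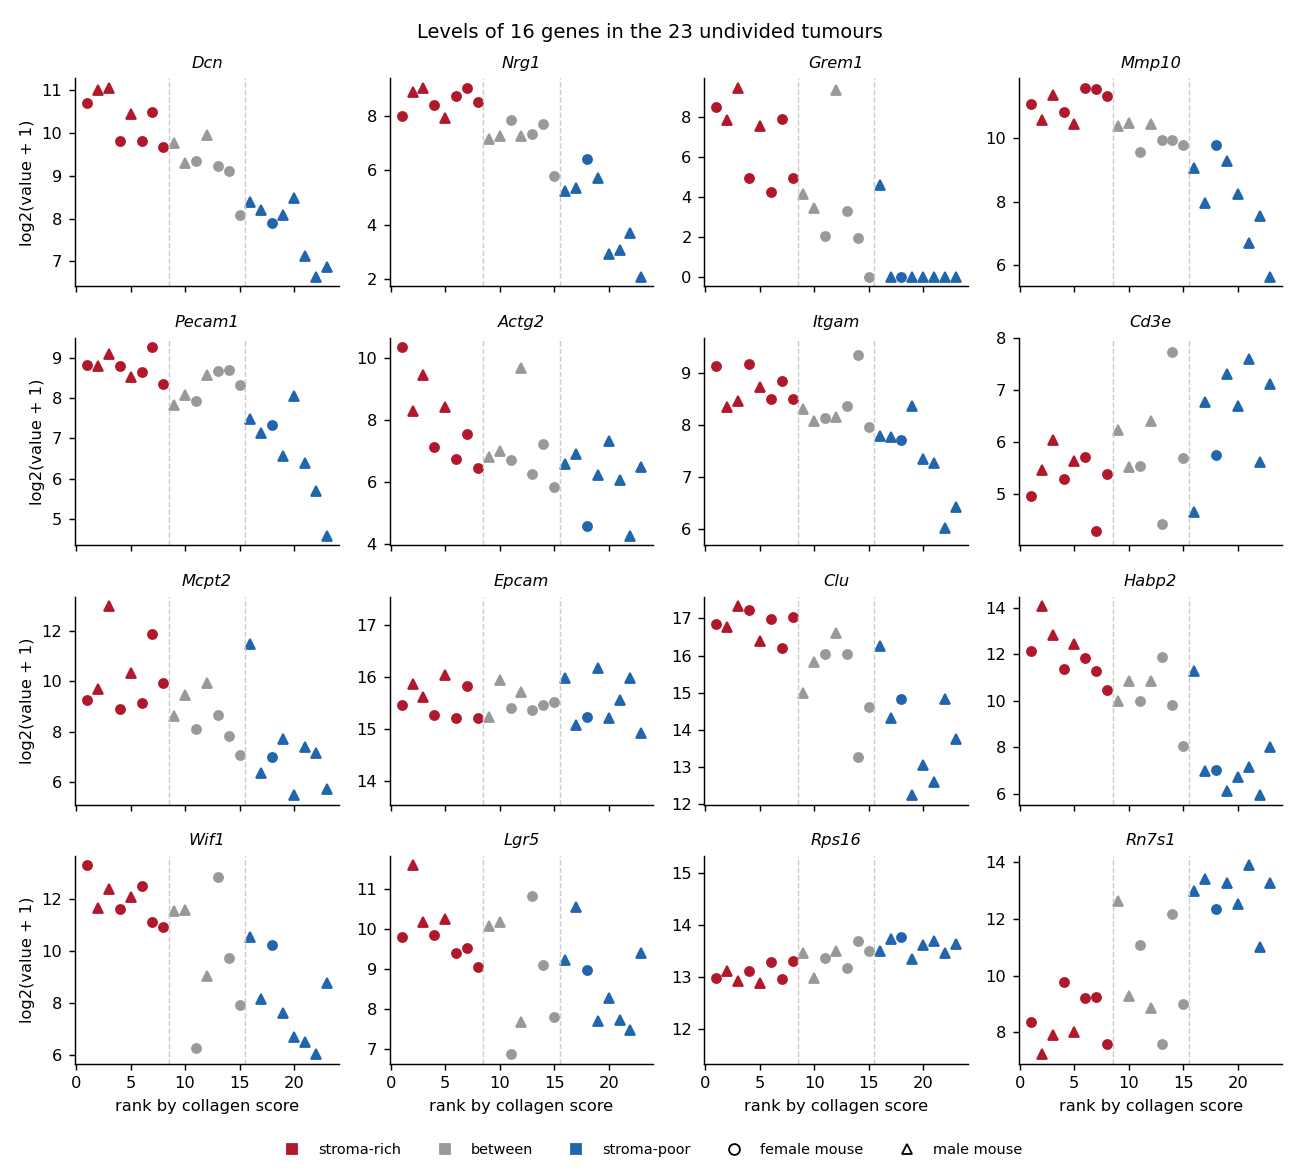
Log2(value + 1) of 16 genes in the 23 undivided tumours against rank by collagen score, coloured by set, with circles for the female and triangles for the male mouse. Dcn, Nrg1, Mmp10 and Pecam1 step down between the sets without overlap and Rn7s1 steps up, the sets overlap in Epcam, and in Grem1, Mcpt2 and Habp2 the stroma-poor tumour at rank 16 (tumour 8 of the male mouse) lies with the stroma-rich set.

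Genes shared by all epithelium did not pass. Of 18 pan-epithelial genes 0 were called (median 0.23), or 2 higher with every library at the same sum. The list is too short for these counts to be told from the background of all genes. Epcam was at 38070 to 67223 (median 47685) in stroma-rich and 31001 to 74424 (median 43586) in stroma-poor tumours, and the sets overlap throughout (0.25 ± 0.22, adjusted p = 0.523). Apc stood at 874 to 2209 (median 2067) against 788 to 2520 (median 2119), with a difference of 0.11 ± 0.28 (adjusted p = 0.837). Myc differed by -0.50 ± 0.25 (adjusted p = 0.23).

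Among differentiated lineages calls fell mostly on goblet cell genes. Enterocytes had 0 of 25 genes called and enteroendocrine cells 0 of 22, with Alpi, the brush border phosphatase, at -0.05 ± 0.50 (adjusted p = 0.959) and Chga at -0.07 ± 0.40 (adjusted p = 0.93). These 0 calls cannot be told from the background of all genes in lists of this length. When every library had the same sum 5 of the enterocytes list were called higher. Of 14 goblet cell genes 5 were higher (median 1.01). Spdef, the transcription factor of goblet cell maturation, was at 542 to 2996 (median 939) against 123 to 887 (median 272), 4 stroma-rich tumours lying above all stroma-poor ones (2.23 ± 0.44, adjusted p = 0.00737). Creb3l1 rose by 1.24 ± 0.27 (adjusted p = 0.0122), while the mucin Muc2 (0.94 ± 0.52, adjusted p = 0.265) and Tff3 (0.40 ± 0.30, adjusted p = 0.412) were not called.

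Of 14 Paneth cell genes 1 was higher, Habp2, a secreted serine protease (chromosome 19, 56275569 to 56309254). It was at 1405 to 17059 (median 4081) in stroma-rich tumours, at 61.2 to 255 in 7 stroma-poor tumours and at 2500 in tumour 8 of the male mouse (5.29 ± 0.71, adjusted p = 0.0012). The defining Paneth genes Lyz1 (0.18 ± 0.48, adjusted p = 0.853) and Mmp7 (-0.01 ± 0.31, adjusted p = 0.987) were not called. Counts in the Paneth list and in the tuft cell list that follows cannot be told from the 4.75% of all genes. Avil, advillin of tuft cells, was the 1 call of 11 in its list, at 5505 to 10792 (median 8291) against 142 to 5424 (median 808) and so just without overlap (2.62 ± 0.70, adjusted p = 0.0303), while Dclk1 was not called (1.20 ± 0.39, adjusted p = 0.0619).

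Stem cell and WNT target genes divided. Of 18 stem cell genes 6 were higher and of 24 WNT targets 9, with none lower, and Lgr5, Sox9, Ascl2 and Cd44 stand in both lists. The mean level of the stem cell list had a median of 9.88 in stroma-rich tumours, 9.91 in those between and 9.63 in stroma-poor ones. Sox9 was at 1522 to 5189 (median 2530) against 467 to 1700 (median 856), with 7 stroma-rich tumours above every stroma-poor one (1.66 ± 0.29, adjusted p = 0.00448). Lgr5 was at 524 to 3081 (median 910) against 177 to 1486 (median 407), overlapping widely (1.62 ± 0.48, adjusted p = 0.0455), and its call was lost in 21 of 36 alternatives. Ascl2, however, was at 183 to 619 against 420 to 2134 and leaned the other way without passing (-1.23 ± 0.40, adjusted p = 0.0637). Axin2, the feedback inhibitor of WNT signalling, differed by -0.15 ± 0.38 (adjusted p = 0.837). The genes of the secreted proteins Wif1 and Dkk3 gave the largest rises among the called WNT targets. Wif1 went from 64.5 to 1464 (median 239) to 1904 to 9925 (median 3727), a log2 fold change of 3.52 ± 0.69 (adjusted p = 0.00761). Dkk3 rose by 2.59 ± 0.43 (adjusted p = 0.00351), also without overlap, and Notum just missed (1.12 ± 0.35, adjusted p = 0.0541).

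Fetal-like and regenerative genes rose in 2 of 22 cases, a count that cannot be told from the 4.75% of all genes. Clu, clusterin, which marks revival stem cells of injured crypts (chromosome 14, 66190200 to 66218999), was abundant in both sets. Its values were 75079 to 164926 (median 124431) in stroma-rich tumours, 4841 to 29400 in 7 stroma-poor tumours and 78961 in tumour 8 of the male mouse (2.699 ± 0.54, adjusted p = 0.00822). Ereg, epiregulin, a ligand of the EGF receptor, was at 324 to 756 (median 428) against 3.50 to 182 (median 25.9), without overlap (3.70 ± 0.71, adjusted p = 0.00686). The defining Ly6a (0.72 ± 0.52, adjusted p = 0.412) and Anxa1 (0.39 ± 0.50, adjusted p = 0.661) were not called. Of 14 YAP targets 3 were higher, led by Axl, a receptor tyrosine kinase, at 337 to 744 against 40.7 to 262 (1.70 ± 0.34, adjusted p = 0.00761).

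Of 19 MAPK output genes 4 were higher, counting Ereg again. Spred3, an inhibitor of RAS to MAPK signalling, was at 95.4 to 273 (median 130) against 1.47 to 60.5 (median 4.38), without overlap (3.62 ± 0.72, adjusted p = 0.0078). Etv5, a transcription factor induced by ERK, rose by 1.81 ± 0.45 (adjusted p = 0.0206). The phosphatases Dusp4 (0.48 ± 0.45, adjusted p = 0.531) and Dusp6 (1.14 ± 0.47, adjusted p = 0.138) were not called.

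Part of the growth genes went the other way. Of 29 MYC targets 5 were lower and none higher (median -0.19). The mean level of the whole list, with no covariate, did not fall with stroma. Its median was 11.3 in stroma-rich tumours, 11.6 in those between and 11.2 in stroma-poor ones. Hspe1, the mitochondrial chaperonin, was at 1742 to 2655 (median 2073) in stroma-rich and 2832 to 4679 (median 3838) in stroma-poor tumours and did not overlap (-0.95 ± 0.13, adjusted p = 0.00144). Cdk4 fell by 0.66 ± 0.14 on the log2 scale (adjusted p = 0.0105). Of 36 cytosolic ribosomal proteins 24 were lower (median -0.47), where 4.36% of all genes were. Rps16 was at 7600 to 10214 against 10423 to 14000 (-0.61 ± 0.11, adjusted p = 0.00442), and Rpsa and Rplp1 were separated in the same way. That count of ribosomal proteins was 9 with every library at the same sum, 27 with equal pan-epithelial genes and 3 with segment in the fit, with a negative median throughout. None of 33 genes of replication and mitosis passed, Mki67 differing by 0.34 ± 0.37 (adjusted p = 0.604).

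The largest single differences were in genes near 0 in most stroma-poor tumours. Beside Grem1, the greatest rises belonged to Serpina3n, a secreted protease inhibitor of the acute phase, Aqp5, a water channel of glands, Faim2, Bpifb9a, Tff1, the trefoil peptide of gastric pits, Prl2c2 and St8sia6. Aqp5 was at 114 to 2796 (median 574) in stroma-rich tumours, between 0 and 12.8 in 7 stroma-poor tumours and at 1071 in tumour 8 of the male mouse (7.66 ± 1.39, adjusted p = 0.00532). Tff1 ran from 231 to 7625 against 0 to 258 (6.39 ± 1.37, adjusted p = 0.0113). Serpina3n ranged from 106 to 42727 within the stroma-rich set alone, and was at 1.58 to 48.3 in 7 stroma-poor tumours and 7338 in the same tumour 8 (7.97 ± 1.64, adjusted p = 0.0094). Bpifb9a and Prl2c2 were listed at 0 in 7 of 8 stroma-poor tumours. Serpina3n, Prl2c2 and Bpifb9a have close paralogues.

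The largest falls were in small noncoding RNAs, with Neb, Myl3 and Lmo1 among coding genes. Rn7s1, the RNA of the signal recognition particle, was at 149 to 874 (median 295) in stroma-rich and 2048 to 15028 (median 8927) in stroma-poor tumours, and the sets did not overlap (-4.71 ± 0.47, adjusted p = 0.000115). Rmrp (-5.75 ± 0.74, adjusted p = 0.000881), Rpph1, the RNA of RNase P (-4.58 ± 0.50, adjusted p = 0.000282), the spliceosomal Rnu1a1 (-4.63 ± 0.70, adjusted p = 0.00209) and the 5S ribosomal n-R5s100 (-3.73 ± 0.52, adjusted p = 0.00151) behaved alike. The libraries were made from polyadenylated RNA, in which these transcripts are not the target, and their levels lay apart in the same way as the Rn18s share. Neb, a giant protein of muscle filaments, was at 3.48 to 204 against 73.7 to 8987, its 3 highest undivided values being those of tumours 15, 17 and 18 of the male mouse (-4.51 ± 1.25, adjusted p = 0.0339). Myl3, a myosin light chain, fell by 4.74 ± 0.93 on the log2 scale (adjusted p = 0.00764), and Lmo1 changed by -3.99 ± 0.77 (adjusted p = 0.00689).

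The divided tumours, which had no part in choosing the sets, gave the same measure within single tumours. Their score ran from 6.84 to 12.3 over 40 libraries, and the clones a and b of a tumour differed by 0.0987 to 3.85 (median 0.991). With tumour as a block, 470 of 16506 genes rose with the score (2.85%) and 100 fell (0.606%) at an adjusted p under 0.05. Clone letter was not in this fit, so any difference shared by clones a and b across tumours enters the slope. The paper reports that the major and minor clones of a tumour differed in expression. The part of clone letter in these slopes was not tested. In 1 of the 20 tumours, number 22 of the female mouse, the labels give clone a as SI20 and clone b as SI10, and without it 636 genes were called in place of 570, with all 43 named calls kept. Of the 1503 genes called between the sets 1345 had the same sign here (89.5%), as had 68.5% of all 16506 genes, and 208 were also called with it, 179 of them higher. None was called with the opposite sign. The clones with more collagen also had less Rn18s (r = -0.59 over 20 tumours, a description only), and with its log2 share in the fit 117 genes were called, every one of them rising.

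Stromal genes held many of the calls within tumours. Of 12 other collagens 9 were called, of 21 glycoproteins 15, of 14 niche factors 10, of 17 smooth muscle genes 13, of 18 endothelial genes 10 and of 16 proteases 10. Col5a2 changed by 0.94 ± 0.08 per unit of score (SE, adjusted p = 4.41e-08), Dcn by 0.66 ± 0.07 (adjusted p = 2.88e-06), Nrg1 by 0.80 ± 0.09 (adjusted p = 1.96e-06), Inhba by 0.83 ± 0.11 (adjusted p = 2.41e-05) and Mmp10 by 0.65 ± 0.10 (adjusted p = 0.00033). Myh11 and Des, which had missed the threshold between the sets, were called here (0.88 ± 0.16, adjusted p = 0.00154, and 0.67 ± 0.10, adjusted p = 0.000158). Macrophages had 9 of 17 genes called, Csf1r with 0.47 ± 0.09 (adjusted p = 0.00288) and Adgre1 with 0.53 ± 0.11 (adjusted p = 0.00431), and T cells 0 of 18. Of the 9 mast cell genes 0 were called. With the Rn18s share in the fit 22 of the 43 named genes called within tumours stayed called. Rn18s itself, whose own share was the covariate, was among the 43. Of the named genes, Myh11 (adjusted p = 0.211), Csf1r (adjusted p = 0.172), Adgre1 (adjusted p = 0.218) and Ptgs2 (adjusted p = 0.0756) did not, and Col5a2, Dcn, Nrg1, Inhba, Mmp10, Des, Ereg and Axl did. The called members were then 6 collagens, 10 glycoproteins, 3 niche factors, 1 smooth muscle gene, 7 endothelial genes, 5 proteases and 1 of the macrophages and monocytes list.

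Genes of the epithelial lists that were called between the sets were mostly not called within tumours, nor was Aqp5. Slopes were -0.21 ± 0.10 for Clu (adjusted p = 0.272), 0.26 ± 0.20 for Habp2 (adjusted p = 0.525), 0.24 ± 0.29 for Wif1 (adjusted p = 0.709), 0.01 ± 0.13 for Dkk3 (adjusted p = 0.983), -0.03 ± 0.17 for Aqp5 (adjusted p = 0.951) and 0.08 ± 0.09 for Avil (adjusted p = 0.697). Of the 24 WNT targets, 14 goblet cell genes and 36 ribosomal proteins 0 were called. Of the 29 MYC targets 1 was called and of the 18 stem cell genes 1, each rising with the score. Ereg (0.72 ± 0.13, adjusted p = 0.00163) and Axl (0.59 ± 0.07, adjusted p = 1.81e-05) of the epithelial lists were called. So was Ptgs2 (0.92 ± 0.16, adjusted p = 0.0013), which came from the neutrophil list. Bulk RNA does not tell which cells made these transcripts. Rn7s1 fell by 1.38 ± 0.25 per unit (adjusted p = 0.00167). Whether any gene differed in its relation to the score between undivided and divided tumours was not tested.

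**Figure D4:**
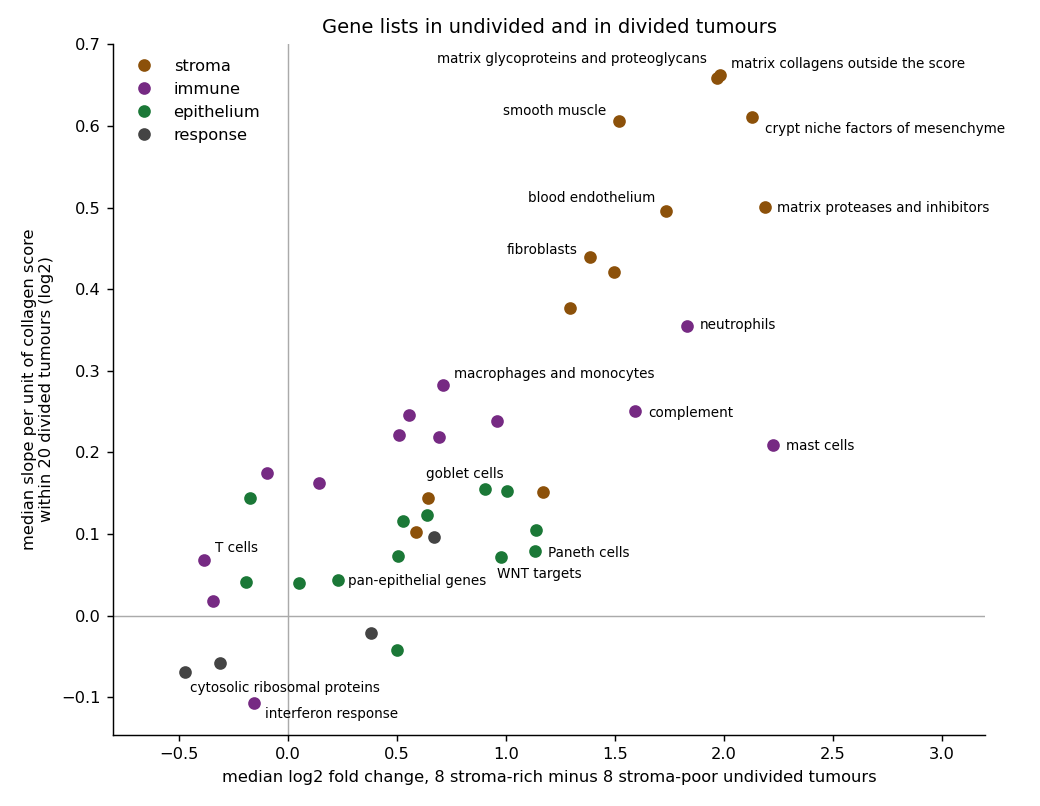
Each point is a gene list of at least 5 tested genes, with its median log2 fold change between the sets of undivided tumours on the horizontal axis and its median slope per unit of collagen score within 20 divided tumours on the vertical axis. Matrix lists lie at 1.98 and 0.66, mast cells at 2.23 and 0.21, Paneth cells at 1.14 and 0.08 and ribosomal proteins at -0.47 and -0.07.

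The score could also be followed among tumours with little ribosomal RNA. In the 12 undivided tumours with under 5% Rn18s, which include all 8 stroma-rich tumours, 160 genes followed the score (116 rising), against 2903 over all 23 tumours (1732 rising). Of the 83 named genes called over all 23 tumours 16 stayed called here, 6 of them collagens or matrix glycoproteins (Col5a1, Col5a2, Col6a2, Dcn, Postn and Nid1). The slope was 1.08 per unit for Col5a2 (adjusted p = 0.000582), 1.02 for Dcn (adjusted p = 0.011), 1.09 for the protease Mmp2 (adjusted p = 0.0011) and 1.16 for the ligand Nrg1 (adjusted p = 0.036). Of the genes not confined to stroma, Habp2 (1.53, adjusted p = 0.0456), Dkk3 (1.24, adjusted p = 0.036) and Spred3 (0.96, adjusted p = 0.0349) rose and Ran (-0.44, adjusted p = 0.0166) fell. With segment as a covariate of the comparison between the sets, 19 of 73 named genes stayed called. They were Col5a2, Dcn, Postn and Nid1 of the matrix, the secreted factors Grem1, Nrg1, Inhba and Dkk3, Mmp2, C4b and Habp2, and on the lower side Hspe1, Rps16 and 6 noncoding RNAs (Rn7s1, Rnu1a1, Rpph1, n-R5s100, Rmrp and Rn18s).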

How the data were processed

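Stranded libraries of polyadenylated RNA were sequenced. The labels call every sample microdissected, while the study's methods say that tumours were taken either whole or in pieces. The deposited table of 24766 genes by 63 libraries holds a signal per gene. Per the labels and the study's methods, the authors trimmed reads with Trimmomatic 0.39, estimated gene counts with Salmon 1.9.0 against Gencode M30 (GRCm39) and normalised them between libraries. FastQC 0.11.9, STAR 2.7.7a and Picard 2.27.3 are also named. DESeq2 is mentioned, but the scaling is not otherwise given in the sources used here. Since values are fractional, no count test was run. Positions come from Gencode M39 (GRCm39) and promoters from RefSeq.

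The members and the 48 gene lists were chosen with earlier results of these data known, and some genes stand in several lists. The text names the 8 largest changes each way with a mean of at least 50 (symbols of the form Gm, Rik or -ps left out), the first 2 tested and up to 3 called members of each list, and Apc, Myc, Lgr5, Epcam and Ptprc. Part of these appear in counts only. Mmp13 and Rn18s were added after their values were seen.

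Tests used limma 3.58.1 (eBayes with trend, R 4.3.3) on log2(value + 1), two-sided, with Benjamini-Hochberg adjustment over all genes. This scale understates folds of low genes. The fit between sets had mouse as covariate. The fit within divided tumours had the tumour as a block, a pairing given by the tumour number that clones a and b share in the labels. Exact tests used scipy 1.17.1. Depth was estimated from the size of 1 read in each library. Pairs of undivided libraries correlated at 0.846 to 0.964, and none was a duplicate. On simulated data made from these libraries, the fit between sets called 38% of 200 genes changed by a log2 of 1, 69.5% at 2 and 83% at 3, and 0 of 16508 when nothing changed. The fit within tumours called 71.5% at 0.5 per unit and 95.5% at 1. Noise was drawn for each gene alone, so factors shared by many genes of a library were absent. The 0 calls therefore do not measure false calls in these data. Alternatives covered pseudocount, filter, scaling, covariates, set size, another score and left-out tumours. The fits with the Rn18s share as covariate, without tumours 15, 17 and 18 of the male mouse, without the tumours of highest sum, without small RNAs, in tumours of low Rn18s, and of the slope within each mouse were chosen after seeing the data.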

Additional observations from a re-analysis of the deposited data

Results flagged for a closer look

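A test for a sample far from the others (Dixon's ratio on log2 values within each set of 8) was applied to 242 combinations of a named gene or library measure with a set, and marked 18. Chance alone marks about 1 in 20. Tumour 8 of the male mouse, which has the highest score of the stroma-poor set, accounts for 10 of them. Its values were far above the other stroma-poor tumours for Grem1 (23.3), Mcpt2 (2833), Habp2 (2500), Serpina3n (7338), Aqp5 (1071), Bpifb9a (182), Prl2c2 (754) and St8sia6 (502), and far below them for Apc (788) and Myl3 (2.13). Without this tumour 1978 genes were called between the sets, 1130 of them higher.

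The remaining marks were spread over other tumours. In the stroma-rich set Pdgfra was low in tumour 10 of the male mouse (523) and Rmrp was listed at 0 there, Mcpt1 was high in tumour 6 of the male mouse (12398), and Apc was low in tumour 4 of the female mouse (874). In the stroma-poor set Wnt5a was low in tumour 5 of the male mouse (19.1), and Csf1r (64.1), Adgre1 (14.9) and Rpph1 (295) were low in tumour 4 of the male mouse. The cause of these values was not tested. Whether the slope on the score differs between the mice was tested for every gene over the 23 tumours, and 0 of 16508 passed by limma, with 1517 at an unadjusted p under 0.05 and a lowest adjusted p of 0.0809.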

How the results depend on the processing

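The 1503 calls between the sets became 2950 without a covariate, 181 with mouse and segment, 212 in the male mouse alone, 2662 with the 4 highest and 4 lowest tumours of each mouse, 2903 as a slope over 23 tumours, 239 with a score from the fibroblast list and 0 with the Rn18s share (1392 at an unadjusted p under 0.05). The Rn18s share did not overlap between the sets, so the fit with it can hardly tell set from share. Leaving out 1 tumour gave 417 to 1978. No fit within the female mouse alone was made, since it holds 1 stroma-poor tumour. Under the other alternatives the count stayed within 1132 and 2243. Without tumours 15, 17 and 18 of the male mouse it was 1756. Within divided tumours the 570 calls became 6189 with no replicate block and 117 with the block and the Rn18s share, and 332 to 904 with 1 tumour left out (332 without tumour 29 and 904 without tumour 19, both of the male mouse). The slope over all undivided tumours called 2903 genes, 1277 in the female (44.1% rising) and 481 in the male mouse (82.1% rising), 133 with the Rn18s share and 160 in tumours with under 5% of it.

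Of 73 named genes called between the sets all kept their direction under every alternative except the Rn18s share, where 66 did and 0 were called. There Postn turned to -0.0382, Mmp14 to -0.22, Avil to -1.22, Spred3 to -0.56, Faim2 to -0.21, Bpifb9a to -0.20 and Rn18s to 0.063. In the slope over undivided tumours with that share, Rn7s1 turned to 0.077, Rnu1a1 to 0.18, Rpph1 to 0.18, n-R5s100 to 0.23 and Rn18s to 0.0068. In both fits Rn18s was set against its own share, which fixed its value near 0 in advance. Within divided tumours Rmrp turned to 0.0126 with the block and that share, and with no block Npm1 turned to -0.13, Ran to -0.12 and Aqp5 to 0.95, the last 3 called. Top2a turned to -0.41 in the female mouse alone. The cause was not tested. In the simulation with noise drawn gene by gene, a log2 change of 1 between sets of 8 tumours was mostly missed.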

Other observations

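Several smaller lists had a single call in the comparison of the sets, which cannot be told from the 4.75% of all genes. Among 5 transcription factors and markers of mesenchymal change Cdh2, N-cadherin, was higher, at 145 to 1235 (median 290) in stroma-rich and 7.60 to 157 (median 41.1) in stroma-poor tumours (3.29 ± 0.71, limma adjusted p = 0.0114). The 1 call of 3 genes of interstitial cells of Cajal was Ano1, a chloride channel, at 454 to 6377 against 34.2 to 908 (2.96 ± 0.75, adjusted p = 0.023). The single plasma cell gene called, Sdc1, is a syndecan that epithelium also makes (0.77 ± 0.23, adjusted p = 0.0487). The single lymphatic gene called, Prox1, also stands among the WNT targets (1.75 ± 0.48, adjusted p = 0.0337). P4ha1, a collagen prolyl hydroxylase, was the call of 16 genes of glycolysis and hypoxia (0.69 ± 0.19, adjusted p = 0.036), and Klf2, a factor of flow-exposed endothelium, that of 15 immediate early genes (1.19 ± 0.31, adjusted p = 0.0275).

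None of 6 dendritic cell, 11 regulatory T cell and checkpoint, 3 B cell or 2 eosinophil genes was called, in lists too short for a reading. Oxidative phosphorylation had 0 of 29 genes called and a median of -0.31, with every member below 0. Of these oxidative phosphorylation genes 14 were called lower after quantile normalization and 9 with equal pan-epithelial genes.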
